A study of Mus musculus with 28 samples.

Results

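The genes described here are 7 feedback inhibitors of ERK signalling, the dual-specificity phosphatases Dusp1, Dusp4, Dusp5 and Dusp6 and the Sprouty genes Spry1, Spry2 and Spry4, out of 22238 protein-coding genes in the mouse annotation. Each gene was taken as its body with 100 kb on each side and followed through every list of called regions. The 7 were chosen by family and with the VDR, RXR and histone regions called near them in these same lists in view, so the counts that follow describe the genes and no test was made of them.

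The study mapped the vitamin D receptor (VDR), its partner the retinoid X receptor (RXR) and 9 histone marks by chromatin immunoprecipitation with sequencing in IDG-SW3, an immortalised mouse bone cell line that passes from an osteoblast-like to an osteocyte-like state in culture. IDG-SW3 cells carry an interferon-inducible, temperature-sensitive T antigen and a GFP reporter under a Dmp1 promoter, and all groups come from this one line. They were grown at 33 °C with interferon gamma and then moved to 37 °C in osteogenic medium without it. Factor libraries are from day 35, after 3 h with 100 nM 1,25-dihydroxyvitamin D3 (1,25D3, the active hormone) or after 3 h with vehicle, with 2 biological replicates for each factor and arm. Histone libraries are from cells at day 35 and at day 3, with no hormone dose or treatment time recorded for them. There is 1 library for each mark and day, so differences between the days have no replicate check.

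The 2 VDR lists held 1618 and 1333 peaks with 1,25D3, against 291 and 342 with vehicle. The 2 RXR lists held 10333 and 7635 peaks with 1,25D3, against 6875 and 4093 with vehicle, so replicate 2 was the shorter in each RXR arm. Depth is not stated. The score of a peak is the authors' own and of unstated scale, so it ranks peaks within a list, and scores of different libraries are set side by side without a comparison of their size. Of 12 osteoblast and osteocyte markers, 11 had H3K27Ac within 2 kb of their transcription start site (TSS) at day 35 and 11 at day 3, the exception being Fgf23. Of 13 markers of other cell types, 9 had it at day 35 and 6 at day 3. The 6, called on both days, were the adipocyte genes Pparg and Plin1, the osteoclast genes Ctsk and Acp5, the endothelial Pecam1 and the chondrocyte Sox9. Adipoq, Csf1r and Acan had it at day 35 alone. The muscle genes Myod1 and Myog, the leukocyte gene Ptprc and the endothelial gene Cdh5 had it on neither day. H3K4me3 was called at 8 of the 12 bone markers at day 35 and at 7 at day 3. It was called at 3 of the 13 others on each day.

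ERK is the last kinase of a cascade that runs from receptor tyrosine kinases such as the FGF receptors through Ras, Raf and MEK. Active ERK induces the genes of its own inhibitors. Dual-specificity phosphatases remove phosphate from the activation loop of MAP kinases, DUSP6 in the cytoplasm and DUSP1, DUSP4 and DUSP5 in the nucleus, while Sprouty proteins act farther upstream, between the receptor and Raf. VDR binds DNA as a heterodimer with RXR, typically at a DR3 element, a direct repeat of nuclear receptor hexamers spaced by 3 bases.

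The sequences under the sites that follow are shown because VDR was called there in both replicates with 1,25D3 and in neither vehicle replicate, and because a Dusp1 site called for RXR alone makes a contrast with them. Each is 200 bases of the mm9 plus strand, 5′ to 3′, around the centre of the site, with matches to the DR3 element, to TGANTCA (the AP-1 element) and to TGTGGT (the RUNX element) in capitals, on either strand. A DR3 match was allowed 1 mismatch, and no matches overlap each other in these windows.
Dusp6, VDR site, chr10:98750762-98750961: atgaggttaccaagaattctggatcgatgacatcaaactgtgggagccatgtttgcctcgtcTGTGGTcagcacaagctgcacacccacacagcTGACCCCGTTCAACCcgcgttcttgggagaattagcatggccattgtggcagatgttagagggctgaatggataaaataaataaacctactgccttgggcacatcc
Dusp1, VDR site, chr17:26666662-26666861: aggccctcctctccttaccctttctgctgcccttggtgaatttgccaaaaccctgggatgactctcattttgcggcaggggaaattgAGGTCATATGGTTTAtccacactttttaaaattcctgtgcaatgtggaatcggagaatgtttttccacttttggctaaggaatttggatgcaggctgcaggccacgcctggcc
Dusp5, RXR site under the VDR peak, chr19:53535896-53536095: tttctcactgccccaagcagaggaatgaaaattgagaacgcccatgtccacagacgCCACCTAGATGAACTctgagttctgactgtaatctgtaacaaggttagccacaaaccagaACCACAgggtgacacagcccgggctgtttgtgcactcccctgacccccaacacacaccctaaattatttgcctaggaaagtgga
Dusp1, RXR site without VDR, chr17:26651724-26651923: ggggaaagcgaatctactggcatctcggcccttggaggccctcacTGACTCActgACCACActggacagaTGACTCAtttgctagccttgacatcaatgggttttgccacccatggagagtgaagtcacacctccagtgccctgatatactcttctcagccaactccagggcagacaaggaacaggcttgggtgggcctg

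The Dusp6 window held a DR3 element with 0 mismatches, read GGTTGAACGGGGTCA on the minus strand at chr10:98750856-98750870, starting at position 95 of the 200, with a RUNX match on the plus strand at position 63. The Dusp1 window held a DR3 match with 1 mismatch, AGGTCATATGGTTTA on the plus strand at chr17:26666749-26666763. At Dusp5 the 200 bases around the centre of the VDR site held no DR3 match, and a match with 1 mismatch, AGTTCATCTAGGTGG on the minus strand at chr19:53535952-53535966, lay in the window centred on the RXR site. Of all 893 VDR sites found only with 1,25D3, 51.5% held a DR3 match with at most 1 mismatch and 15.6% one with 0 mismatches. At points 2 kb to the left and to the right of those sites the share with at most 1 mismatch was 4.37% and 4.82%. The RUNX match was held by 26.8% of them, against 14.3% and 15.7% at those points. A match is a description of the letters and does not show what bound there.

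VDR sites called in both replicates lay within 100 kb of 3 of the 7 genes with 1,25D3, namely Dusp1, Dusp5 and Dusp6, against 18.1% of all protein-coding genes. With vehicle they lay near 0 of the 7 genes, against 7.64% of all genes. All 3 sites were absent from both vehicle lists, as were 893 of all 1218 VDR sites with 1,25D3 in the genome. Such a 1,25D3-only VDR site lay near 3 of the 7 genes, against 10.8% of all genes. A site here means that the peaks of both replicates share at least 1 bp. Since these peaks chose the genes, nothing is read from the counts beyond their values.

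Dusp6, the phosphatase that holds cytoplasmic ERK in check, had the strongest VDR site of the group. It lay 25.0 kb downstream of the Dusp6 TSS, at chr10:98750704-98751020 in intergenic DNA, with Dusp6 as the nearest TSS. The VDR peak scored 62.9 in replicate 1 and 62.3 in replicate 2 with 1,25D3, and had no counterpart in either vehicle replicate. Both 1,25D3 libraries ranked it high, among the top 4.26% and the top 5.18% of their lists. By mean rank over both replicates it stood at position 2 of the 893 1,25D3-only VDR sites of the whole genome. A weaker VDR peak 15.95 kb upstream of the TSS scored 6.4 in replicate 1, in the top 87.5% of that list, and was not called in replicate 2.

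RXR was called at the same Dusp6 site in all 4 libraries. Its score there was 68.1 and 59.9 with 1,25D3, against 36.6 and 21.2 with vehicle. Within their own lists these peaks stood at rank 5 of 10333 and rank 8 of 7635 with 1,25D3, and at rank 38 of 6875 and rank 101 of 4093 with vehicle. It was thus among the strongest RXR peaks of each list; the lists differ in length, so the ranks do not show a change between arms.

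Dusp1, a nuclear phosphatase of p38, JNK and ERK, had a VDR site 21.3 kb upstream of its TSS, at chr17:26666604-26666920. The VDR peak scored 10.5 in replicate 1 and 13.9 in replicate 2 with 1,25D3. It ranked in the middle of both lists, in the top 46.4% and the top 40.0%, and stood at position 370 of the 893 sites. RXR scored 12.1 and 16.3 there with 1,25D3, against 11.7 and 8.0 with vehicle. The nearest TSS to this intergenic site was not that of Dusp1 but that of Gm8225, 12.9 kb away.

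Dusp5, a nuclear phosphatase selective for ERK, had a VDR site 67.5 kb upstream of its TSS, at chr19:53535905-53536221. The VDR peak scored 14.0 in replicate 1 and 10.1 in replicate 2 with 1,25D3, in the top 31.2% and the top 59.9% of the lists, and stood at position 378 of the 893 sites. RXR scored 18.4 and 24.4 there with 1,25D3, against 11.1 and 8.8 with vehicle. The site is intergenic and Dusp5 has the nearest TSS. With the window narrowed to 50 kb, or with the higher-scoring 50% of each list, this site was lost, and Dusp1 and Dusp6 kept 1 site each.

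All 3 VDR sites thus lay on DNA where RXR was already called in both vehicle replicates. Among all 1,25D3-only VDR sites, 221 of 893 (24.75%) lay on an RXR site of the vehicle arm and 654 (73.24%) on an RXR site of the 1,25D3 arm. With 3 sites this is given as a count only.

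The other 4 genes had no VDR site in their windows in either arm. The nearest VDR site with 1,25D3 was 196.6 kb from the body of Dusp4, 625.3 kb from Spry4, 644.5 kb from Spry1 and 12033.6 kb from Spry2. Around the 3 genes with a site, the closest one outside the window lay 116.5 kb from Dusp5, 389.3 kb from Dusp6 and 623.5 kb from Dusp1. None of the 4 genes without a VDR site had one just beyond the 100 kb limit.

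**Figure D1:**
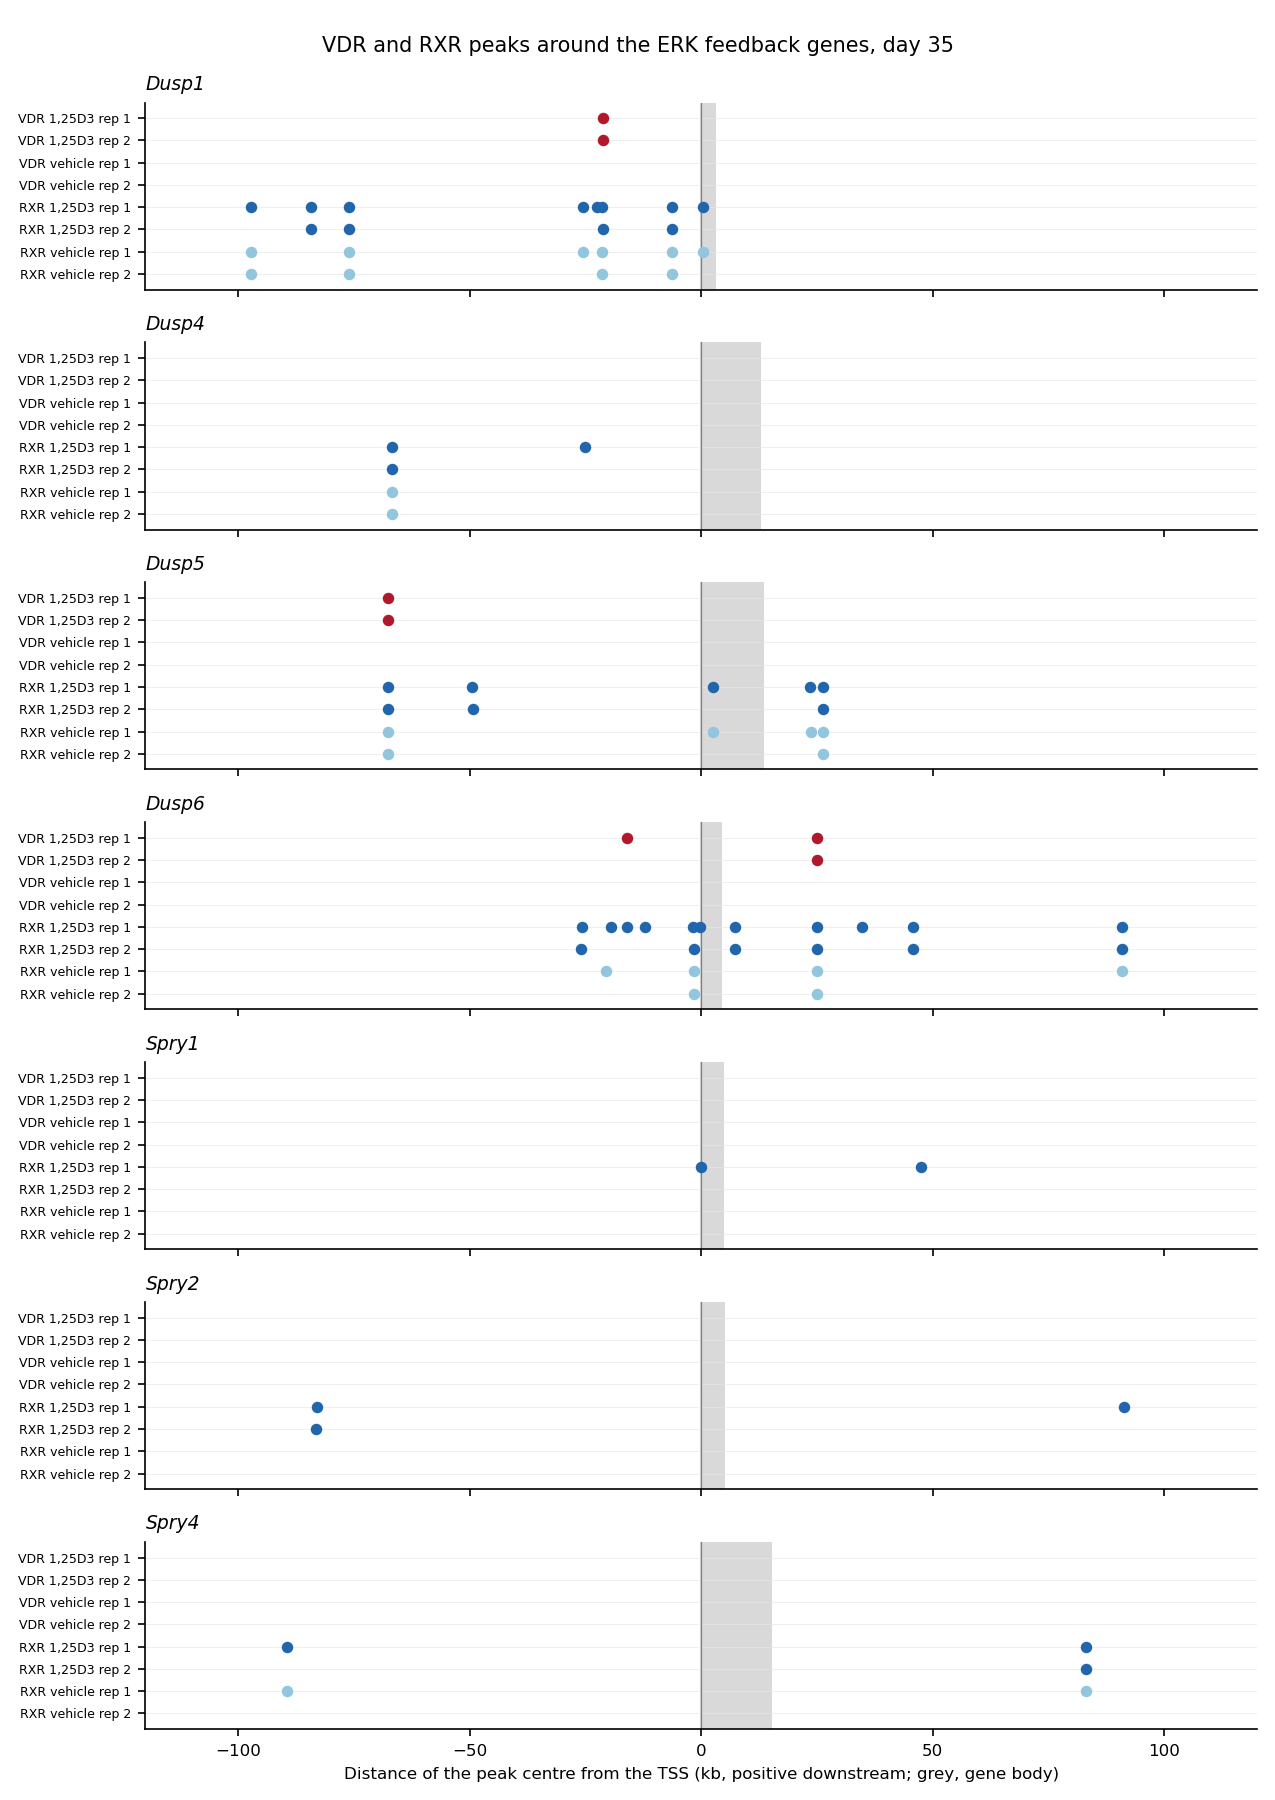
Each dot is a called VDR or RXR peak at day 35, placed by the distance of its centre from the TSS of the gene (kb, positive downstream), with one row per library and 1,25D3 rows above vehicle rows. VDR dots appear at Dusp1, Dusp5 and Dusp6 with 1,25D3 only, and Dusp6 has 11 and 6 RXR peaks with 1,25D3, against 4 and 2 with vehicle.

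RXR was called much more widely. Summed over the 7 windows, RXR peaks numbered 32 in replicate 1 and 16 in replicate 2 with 1,25D3, against 17 and 9 with vehicle. Sites shared by both replicates numbered 16 with 1,25D3, at 6 of the 7 genes, against 45.0% of all genes. With vehicle there were 9, at 4 of the 7 genes, against 30.5% of all genes. RXR sites with no peak in either vehicle list numbered 6, at 4 of the 7 genes (Dusp1, Dusp5, Dusp6 and Spry2), against 14.6% of all genes.

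With 1,25D3 Dusp6 had the most RXR sites of the 7, 6 against 2 with vehicle, while with vehicle Dusp1 had the most, 4, a number that 1.24% of all genes reached. For Dusp6, as many or more were held by 1.3% of all genes with 1,25D3, and 2 or more by 10.6% of all genes with vehicle. Both vehicle sites, 1.65 kb upstream and 25.0 kb downstream of the TSS, were also present with 1,25D3. At the promoter-proximal one RXR scored 13.4 and 20.2 with 1,25D3, against 13.4 and 10.7 with vehicle.

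The 3 Dusp6 sites called only with 1,25D3 lay 25.9 kb upstream, 7.38 kb downstream and 45.8 kb downstream of the TSS. They scored 8.9 and 10.2, 9.1 and 7.2, and 8.9 and 7.0 in replicates 1 and 2, all far below the site 25.0 kb downstream. Among all genes, 0.432% had as many 1,25D3-only RXR sites. A further site 90.8 kb downstream scored 13.9 and 12.9 with 1,25D3, against 11.1 in vehicle replicate 1 and no peak in vehicle replicate 2. Its nearest TSS was that of B530045E10Rik, 66.5 kb away.

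Dusp1 had 4 RXR sites with 1,25D3 and 4 with vehicle, and 3 of them were the same places. The strongest lay 76.1 kb upstream of the Dusp1 TSS in an intron of Ergic1, with scores of 23.5 and 25.0 with 1,25D3, against 17.9 and 17.9 with vehicle. A site 6.36 kb upstream, whose nearest TSS is that of Dusp1, scored 9.3 and 10.2 with 1,25D3, against 6.2 and 7.4 with vehicle. It is the site shown above without VDR, with 2 AP-1 matches and 1 RUNX match. A site 84.3 kb upstream was called only with 1,25D3, at 9.1 and 7.2, and one 97.2 kb upstream was called in both vehicle replicates, at 8.2 and 8.2, and in 1 of the 2 libraries with 1,25D3. Both lie in Ergic1.

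Dusp5 had 3 RXR sites with 1,25D3 against 2 with vehicle. Besides the site with VDR, one 26.2 kb downstream scored 11.8 and 10.2 with 1,25D3, against 9.0 and 6.9 with vehicle. One 49.4 kb upstream was called only with 1,25D3, at 6.8 and 6.2, in the top 66.9% and the top 92.9% of its lists.

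Dusp4, whose nuclear product acts on ERK and JNK, had 1 RXR site in each arm, 66.8 kb upstream of the TSS in intergenic DNA. It scored 10.7 and 11.2 with 1,25D3, against 11.3 and 7.7 with vehicle. It was called in all 4 RXR libraries.

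Spry2 and Spry4 each had 1 RXR site with 1,25D3 and none with vehicle, and Spry1 had none in either arm. The Spry2 site, 83.1 kb upstream, scored 4.6 in replicate 1 and 11.9 in replicate 2 and was in neither vehicle list. The Spry4 site, 83.1 kb downstream, scored 7.5 and 6.8, against a peak of 7.2 in vehicle replicate 1 and none in vehicle replicate 2. The 2 RXR peaks of Spry1, at the TSS and 47.4 kb downstream, scored 5.2 and 7.7 and were called in replicate 1 with 1,25D3 and in no other library.

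Across the 16 RXR sites with 1,25D3, a DR3 match lay at 3, those of Dusp1, Dusp5 and Dusp6 where VDR was also called, against 11.0% of all 6783 such sites. AP-1 matches lay at 3 of the 16, against 35.8% of all, and RUNX matches at 7 of the 16, against 32.4% of all. At the 3 sites with both receptors no AP-1 match was found.

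**Figure D2:**
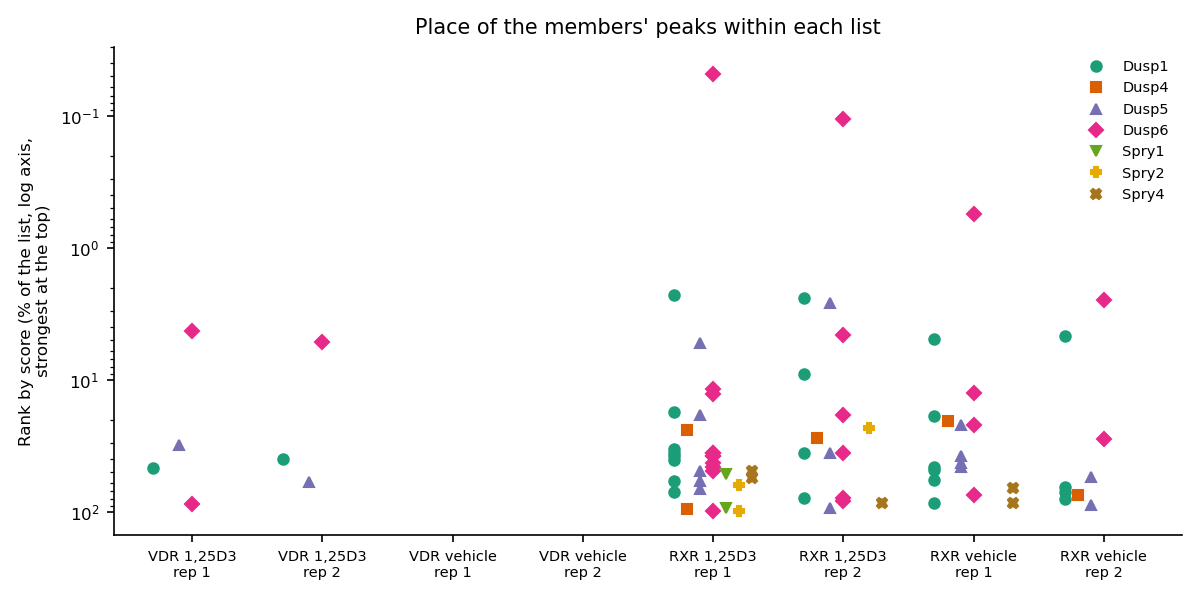
Each symbol is a peak near one of the 7 genes, placed by its rank within its own list as a percent of the list (log axis, strongest at the top), with 1,25D3 libraries left of vehicle libraries for each factor. The Dusp6 peak 25.0 kb downstream stands highest in every list that holds it, at 0.0484% and 0.105% of the RXR lists with 1,25D3 and at 0.553% and 2.47% with vehicle, while the highest Spry peak, that of Spry2 in RXR replicate 2 with 1,25D3, stands at 23.1%.

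The histone marks were mapped in cells for which no hormone dose or treatment time is recorded. At the 3 VDR sites H3K4me1, H3K4me2, H3K27Ac and H4K5Ac, marks found at active enhancers, were each called at 3 of 3 sites at day 35 and at 3 of 3 at day 3. Among all 893 1,25D3-only VDR sites the shares were 93.6% at day 35 and 89.6% at day 3 for H3K4me1, 67.5% and 53.2% for H3K4me2, 83.2% and 74.7% for H3K27Ac, and 87.6% and 79.2% for H4K5Ac. H3K9Ac was called at 3 of the 3 sites at day 35 and at 2 of 3 at day 3, the Dusp6 site having it at day 35 alone, against 58.7% and 57.8% of all 893. H4K20me1 was at 0 of the 3 at day 35 and at 1 of 3 at day 3, against 26.9% and 39.8%. H3K4me3, a promoter mark, was at 0 of the 3 on either day, against 5.49% of all at day 35 and 8.85% at day 3. H3K36me3, a mark of transcribed bodies, was at 0 of 3 against 12.3% and 18.4%, and H3K9me3, a mark of silent chromatin, at 0 of 3 against 1.01% and 2.24%, so most sites of this kind lacked these marks too.

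At the 16 RXR sites some marks were called more often at day 35 and others at day 3. H3K4me1 was called at 16 of 16 on both days, against 98.9% and 97.7% of all 6783 RXR sites. H3K27Ac was called at 16 at day 35 and at 12 at day 3, against 95.0% and 90.3% of all. The 4 that had it at day 35 alone lay 66.8 kb upstream of Dusp4, 49.4 kb upstream of Dusp5, and 7.38 kb and 45.8 kb downstream of Dusp6. H3K4me2 was called at 15 at day 35 and at 12 at day 3, against 87.6% and 74.6% of all, and H4K5Ac at 16 and 15, against 96.5% and 92.6%. H3K9Ac was called at 10 at day 35 and at 11 at day 3, against 74.9% and 76.4% of all, and H4K20me1 at 4 and 6, against 27.6% and 50.4%. Of the 6 sites found only with 1,25D3, 6 carried H3K27Ac at day 35 and 3 at day 3, against 91.3% and 84.5% of all 1303 such sites. A mark in fewer cells and a weaker mark in each cell cannot be told apart in such lists.

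**Figure D3:**
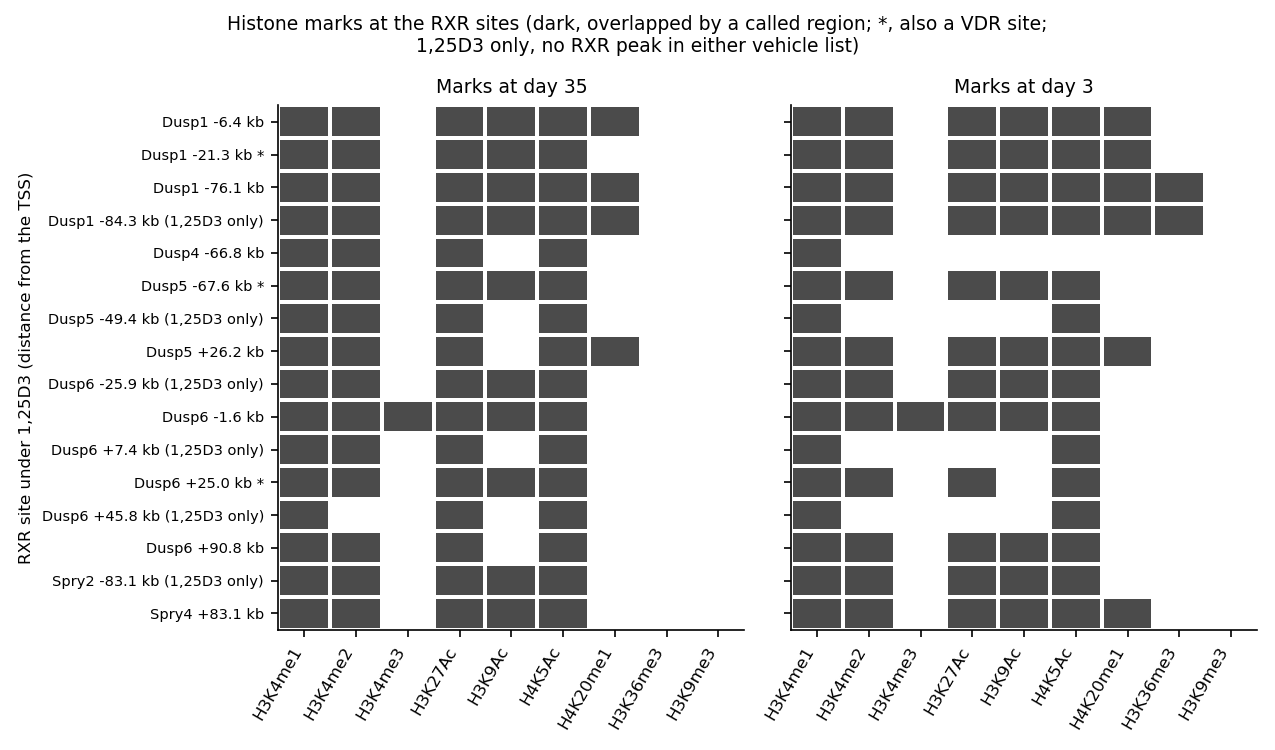
Rows are the 16 RXR sites with 1,25D3, named by gene and distance from the TSS (kb), columns are the 9 marks, and a dark cell means that a called region overlaps the site by at least 1 bp, at day 35 (left) and day 3 (right). H3K27Ac fills 16 of 16 rows at day 35 and 12 at day 3, and H3K4me3 fills the row 1.65 kb upstream of Dusp6 alone on both days.

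Around the genes themselves the same enhancer and acetylation marks spread over more of the DNA at day 35 than at day 3 for some of the 7 and not for others. Coverage is the percent of a window that called regions cover, and a change of more than 10 points was counted. The main window was the gene with 100 kb each side. There 3 of the 63 gene and mark pairs were higher at day 35 by more than 10 points and 0 lower. Over all genes 4.51% of such pairs were higher and 1.32% lower, so the share of higher pairs in the 7 was close to that of all genes. The 2 narrower windows were alternatives to it. Over the gene bodies with 5 kb each side, 25 of the 63 pairs were higher and 1 was lower, against 9.82% and 5.45% over all genes. These shares are not matched for gene length or starting coverage. Bodies of the 7 genes run from 2.93 kb (Dusp1) to 15.0 kb (Spry4). At day 3 H3K27Ac covered a median of 41.6% of these windows in the 7, against 11.5% over all genes. Over 2 kb each side of the TSS 11 of the 63 pairs were higher and 3 lower, against 8.46% and 12.3%.

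H3K27Ac over the gene body with 5 kb each side was more than 10 points higher at day 35 at 5 of the 7 genes, against 17.8% of all genes, and lower at 0, against 5.82%. Spry1 had 70.7% covered at day 35 and 19.7% at day 3. Spry4 had 50.5% at day 35 and 12.9% at day 3. Dusp4 had 71.2% at day 35 and 38.3% at day 3, and Dusp5 had 72.5% at day 35 and 41.6% at day 3. Dusp6, already broadly marked, had 88.6% at day 35 and 67.9% at day 3. Dusp1 and Spry2 moved by less than 10 points, with 91.2% and 64.0% at day 35 and 87.0% and 62.8% at day 3. The median change was 30.9 points over the 7 genes and 0.0 over all genes, silent ones included. At Dusp5 the other windows went the other way, by less than 10 points. H3K27Ac covered 19.98% at day 35 and 23.12% at day 3 with 100 kb each side. Within 2 kb of the Dusp5 TSS it covered 75.11% and 81.75%.

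H4K5Ac was more than 10 points higher at 4 of the 7 genes, against 13.4% of all genes. Spry1 was covered end to end at day 35, at 100.0%, against 28.2% at day 3. Spry4 had 49.2% at day 35 and 11.2% at day 3, Dusp5 had 78.9% and 47.6%, and Dusp4 had 73.0% and 44.6%. Dusp1, Dusp6 and Spry2 stayed within 10 points, at 94.1%, 94.5% and 46.1% at day 35 and 97.0%, 88.3% and 47.0% at day 3. Dusp5 H4K5Ac was lower at day 35 in the other windows, by less than 10 points. It covered 22.52% at day 35 and 24.84% at day 3 with 100 kb each side, and 82.65% and 90.15% within 2 kb of the TSS.

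H3K4me2 was more than 10 points higher at 5 of the 7 genes (Dusp4, Dusp6, Spry1, Spry2 and Spry4), against 9.17% of all genes, and H3K4me1 at 4 (Dusp5, Dusp6, Spry1 and Spry4), against 8.05%. Spry2, whose acetylation moved little, had 64.1% covered by H3K4me2 at day 35 and 40.7% at day 3. H3K9Ac was higher at 1, Spry1, with 44.2% at day 35 and 17.1% at day 3, against 7.09% of all genes. No gene moved past 10 points for H3K4me3, where 0.157% of all genes were higher and 2.14% lower.

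Marks of the transcribed body were also compared. H3K36me3, laid down behind elongating polymerase, was more than 10 points higher at Dusp4, Spry1 and Spry4, 3 of the 7, against 10.7% of all genes. It covered 48.0% of Spry1 at day 35 and 31.9% at day 3, 30.9% and 15.2% of Spry4, and 19.3% and 2.4% of Dusp4. H4K20me1 was also higher at Dusp4, Spry1 and Spry4, against 17.8% of all genes, with 59.1% of Spry1 covered at day 35 and 31.2% at day 3. It was lower at 1, Dusp6, with 34.8% at day 35 and 45.1% at day 3, against 6.18% of all genes.

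H3K9me3 covered 0.0% of the bodies with 5 kb each side of all 7 genes at day 35, as over all genes, where the median was 0.0% on both days. At day 3 it covered 8.78% at Dusp4 and 0.32% at Spry4, and 0.0% at the other 5. The Dusp4 region was 1.98 kb wide and lay between 2.57 kb and 0.59 kb upstream of the TSS, in the top 11.7% of the day 3 list. No region was called there at day 35. At day 3, 8.18% of all genes had as much H3K9me3 coverage with 5 kb each side. Within 2 kb of the TSS, H3K9me3 was more than 10 points lower at day 35 at 8.7% of all genes and at 1 of the 7, Dusp4. The Dusp4 region overlapped H3K4me1, H3K4me2 and H3K27Ac regions of day 3, which began 3.13 kb, 1.6 kb and 1.43 kb upstream of the TSS.

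**Figure D4:**
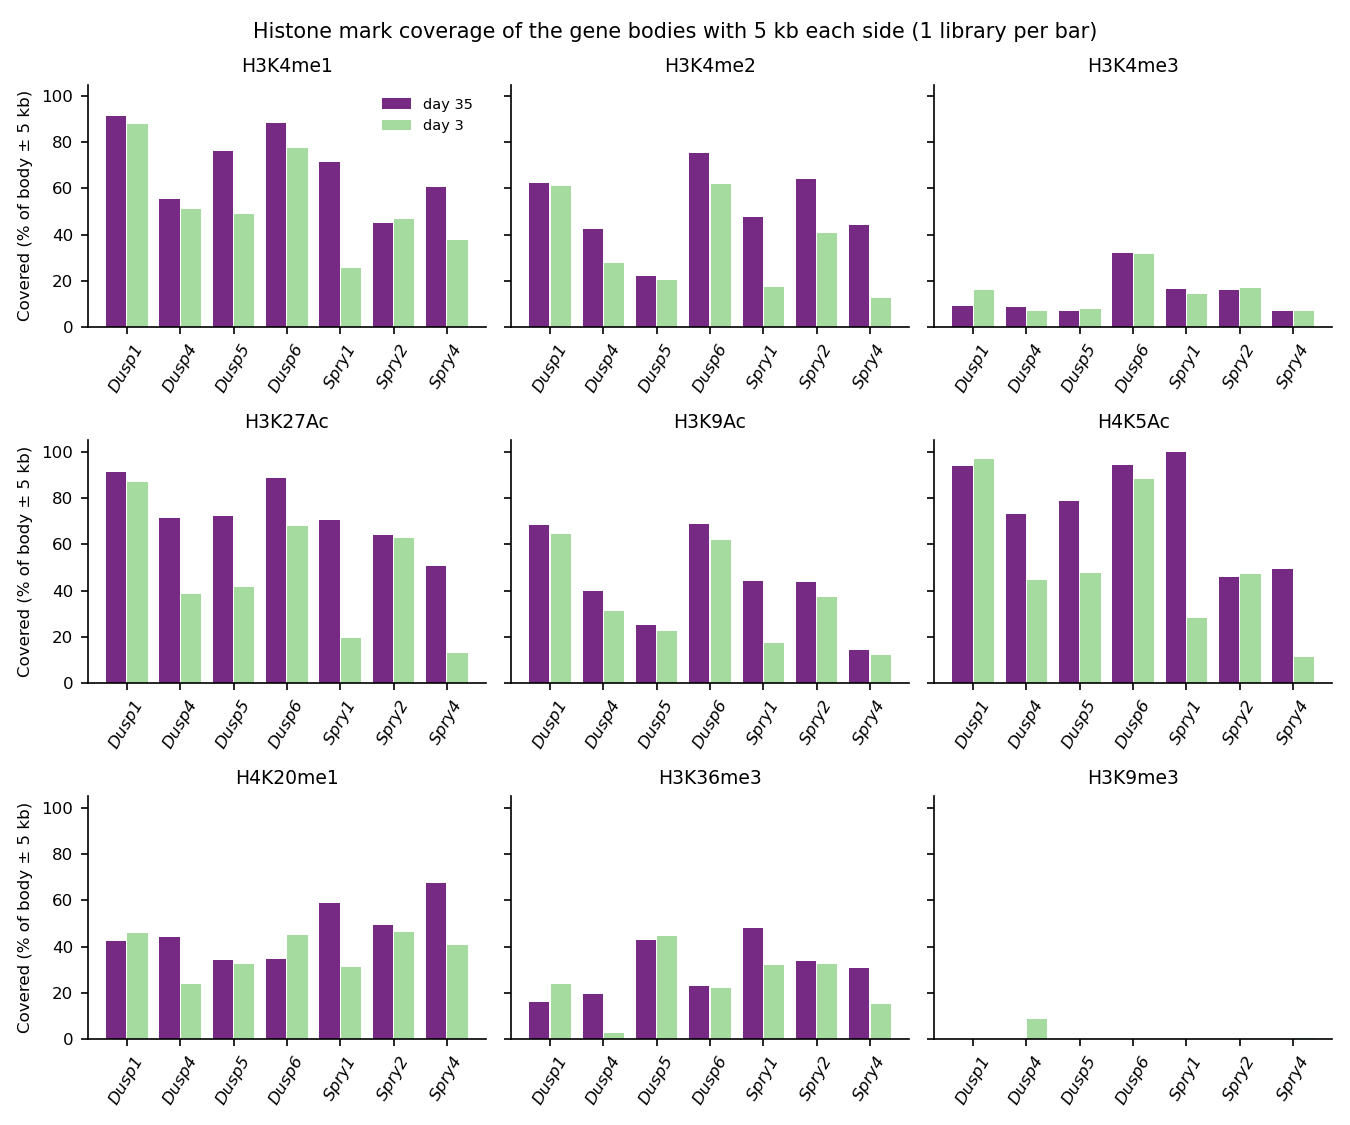
Bars show how much (%) of each gene body and its 5 kb flanks lay in called regions of each of 9 marks, day 35 left and day 3 right for each gene, 1 library per bar and so no error bars. Spry1, Spry4, Dusp4 and Dusp5 have the taller day 35 bars for H3K27Ac and H4K5Ac, Spry1 reaching 100.0% for H4K5Ac against 28.2% at day 3, while the bars of Dusp1 and Spry2 for those 2 marks differ by less than 10 points.

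The regions over the start sites differed in width. At Spry1 the H3K27Ac region over the TSS was 15.98 kb wide at day 35 and 2.88 kb at day 3, and reached 15.3 kb and 2.2 kb downstream. Its H4K5Ac region was 30.64 kb wide at day 35 and 3.5 kb at day 3. The Spry1 H3K27Ac region stood in the top 3.25% of the day 35 list and the top 27.1% of the day 3 list by score. At Spry4 the H3K27Ac region was 11.76 kb wide at day 35 and 3.22 kb at day 3, and the H3K4me2 region 11.07 kb and 3.17 kb. The Dusp5 H3K27Ac region was 16.91 kb wide at day 35 and 8.86 kb at day 3, in the top 6.99% and the top 7.48% of the lists.

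At Dusp1 and Spry2 the H3K27Ac regions over the TSS were nearly as wide at day 3 as at day 35. The Dusp1 H3K27Ac region was 13.85 kb at day 35 and 13.52 kb at day 3, and the Spry2 one 9.51 kb and 9.33 kb. The Spry2 H3K4me2 region was 9.53 kb wide at day 35 and 5.14 kb at day 3. Dusp1 had an H3K4me3 region of 1.2 kb beginning just downstream of the TSS at day 35 and one of 2.06 kb over the TSS at day 3. In the whole genome, 12.97 Mb lay in H3K4me3 regions at day 35, against 17.61 Mb at day 3. Within 2 kb of the TSS, H3K4me3 was more than 10 points lower at day 35 at 26.9% of all genes and at 1 of the 7, Dusp1, with 29.9% covered at day 35 and 51.4% at day 3. It was more than 10 points higher at 1.16% of all genes and at 1 of the 7, Dusp4, with 47.4% at day 35 and 30.8% at day 3.

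Dusp6 had the widest H3K4me3 region at its start site of the 7 genes on both days. It was 4.58 kb wide at day 35 and 4.52 kb at day 3, in the top 1.28% and the top 2.21% of the lists. H3K9Ac there was in the top 0.231% at day 35 and the top 0.74% at day 3, and H3K4me2 in the top 0.261% and the top 0.357%. Wide H3K4me3 regions of at least 50 kb were called on chromosome 10 at day 35, 14 in all, but the nearest to Dusp6 was 17.1 Mb away.

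Over the full 100 kb windows 3 changes passed 10 points, at Spry1 and Spry4. Spry1 H3K27Ac covered 29.7% at day 35 and 17.9% at day 3, against 10.8% of all genes past this change. Spry1 H4K5Ac covered 56.9% at day 35 and 34.4% at day 3, and Spry4 H4K5Ac 26.7% and 16.7%, against 7.63% of all genes. The Spry4 change lay at the limit, at 10.01 points. With the higher-scoring 50% of each list it was 9.39 points, and that of Dusp6 H4K5Ac, 9.6 points with all regions, was 10.63. The Spry1 window ends in a single H4K5Ac region of 133.7 kb at day 35 that begins 51.5 kb downstream of the TSS. The stretch of it inside the window was 64.2% covered at day 3, and the rest of the window was covered to 41.8% at day 35 and 24.0% at day 3.

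**Figure D5:**
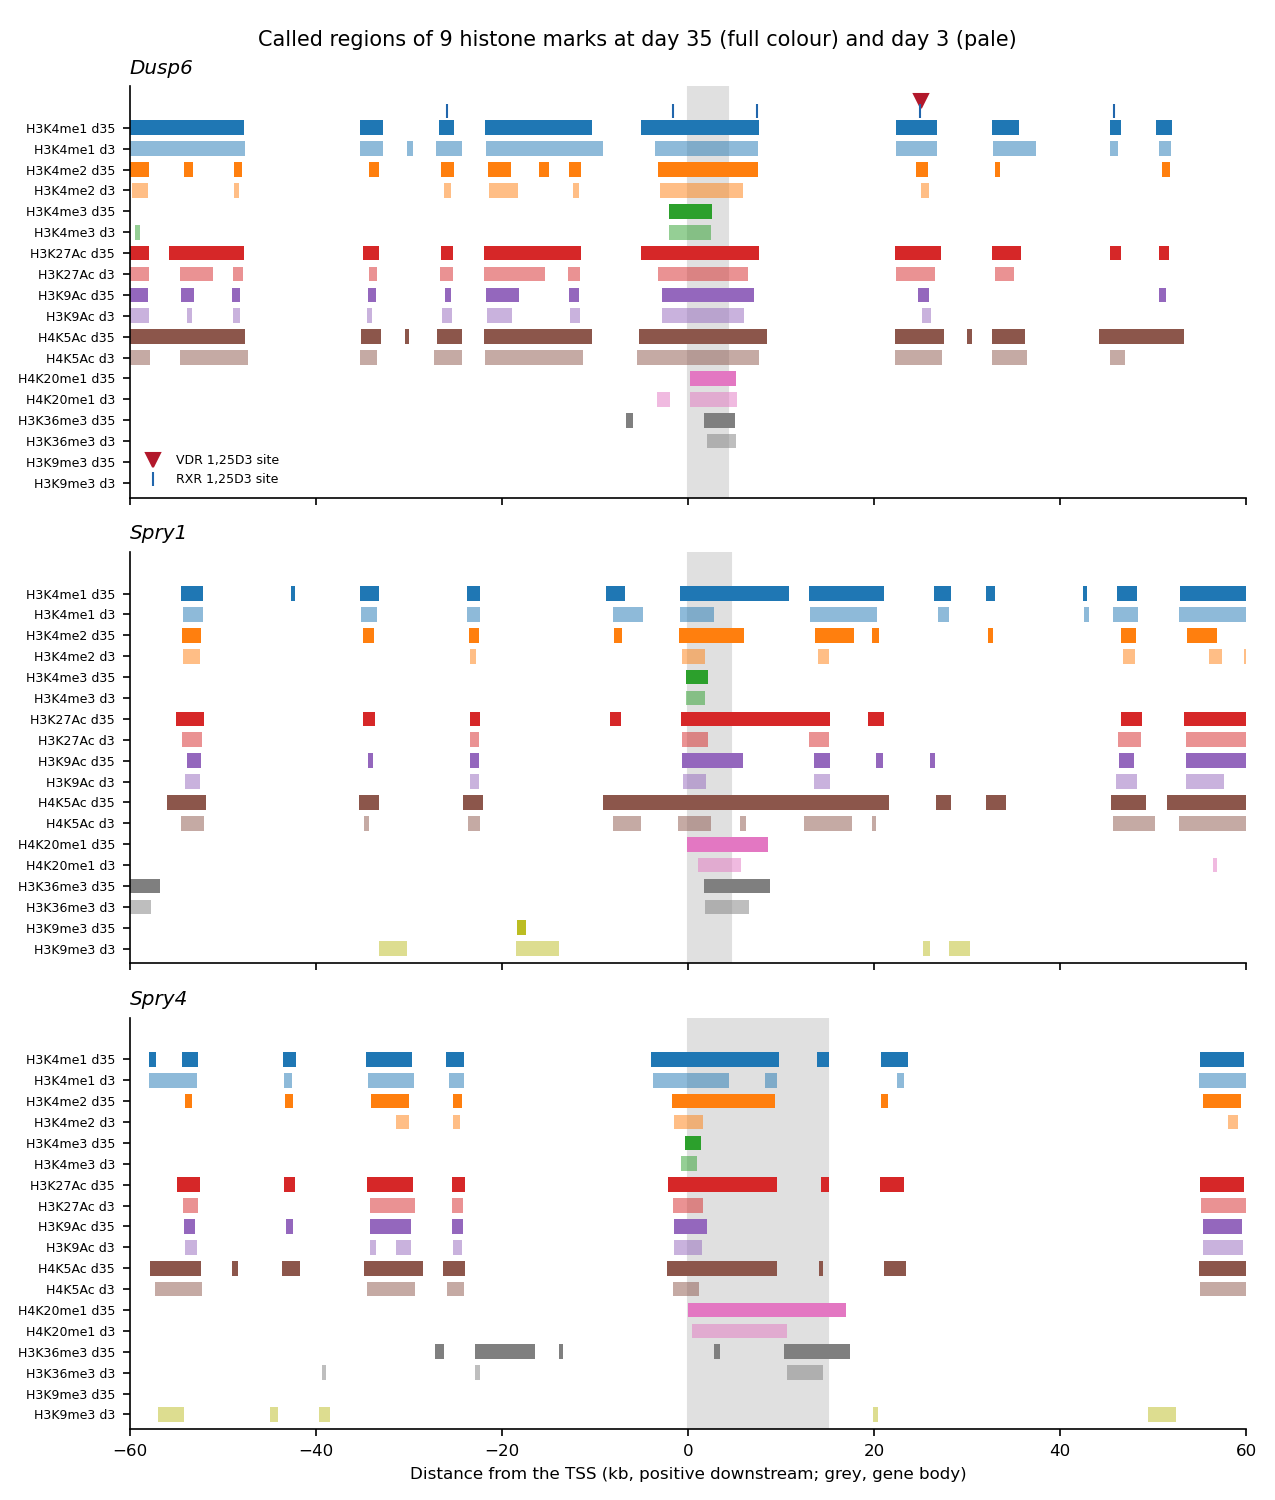
Horizontal bars are called regions of the 9 marks within 60 kb of the TSS of Dusp6, Spry1 and Spry4 (kb, positive downstream), in full colour for day 35 above pale bars for day 3, with the gene body in grey and the VDR and RXR sites with 1,25D3 marked at the top. The H3K27Ac region over the Spry1 TSS is 15.98 kb wide at day 35 and 2.88 kb at day 3, and the Dusp6 VDR site lies in H3K27Ac called on both days.

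Among themselves the 7 genes were not one kind. Over the 18 histone lists the mean absolute difference in coverage was least between Dusp1 and Dusp6, at 6.49 points, and greatest between Dusp6 and Spry4, at 31.7 points. Outside the 7, the gene most like Dusp6 by this measure was Samd10, at 6.92 points, against a median of 46.1 points between Dusp6 and all genes. For Dusp5 it was Runx1, at 5.2 points against its own median of 25.6. For Spry1 it was Insig1, at 6.75 against 27.1, and for Spry4 Arid5a, at 6.06 against 21.6. For Dusp1 it was 1810062G17Rik, at 4.98 against 46.1, for Dusp4 B9d2, at 6.14 against 27.3, and for Spry2 Rpl27, at 4.69 against 29.6. The most like gene is picked from all genes, so its value lies below the median by construction. These pairs of values do not show that a likeness is unusually close.

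Other genes of the pathway were counted in the same windows, where 10.8% of all genes had a 1,25D3-only VDR site. Of 11 other feedback regulators, 2 had a 1,25D3-only VDR site, the phosphatase gene Dusp16 and Errfi1, whose product inhibits the EGF receptor. Of 20 genes of the cascade itself, 3 had one, Fgfr2, the FGF receptor adaptor Frs2 and the receptor adaptor Shc1. Frs2 overlaps one of the wide H3K4me3 regions of chromosome 10, and the bearing of these on its VDR call was not tested. Of 19 genes for transcription factors and early proteins induced by ERK, 6 had one, Egr2, Egr3, Etv5, Ier2, Junb and Myc. With vehicle, VDR sites lay near 0 of the 7 genes described here, 0 of the 11, 2 of the 20 and 6 of the 19, against 7.64% of all genes.

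RXR sites with 1,25D3 lay near 6 of the 7 genes, 6 of the 11 other feedback regulators, 12 of the 20 cascade genes and 17 of the 19 ERK-induced genes, against 45.0% of all genes. H3K27Ac over the gene body with 5 kb each side was more than 10 points higher at day 35 at 5 of the 7, 2 of the 11, 10 of the 20 and 5 of the 19, against 17.8% of all genes. The median change was 30.9 points in the 7, 3.32 in the 11, 11.5 in the 20 and 1.59 in the 19. In the main window of 100 kb, H3K27Ac was higher by this much at 1 of the 7 and 2 of the 11. It was so at 4 of the 20 and 2 of the 19, against 10.8% of all genes. Over the 100 kb windows the largest H3K27Ac changes were those of Spred1, Spred2 and Dusp9 among feedback regulators, at 13.25, 11.99 and 7.44 points. Among cascade genes they were those of Frs2, Fgfr1 and Grb2, at 23.91, 18.79 and 12.57 points, and the Frs2 gene overlaps one of the wide H3K4me3 regions of chromosome 10. Among ERK-induced genes they were those of Etv4, Egr1 and Myc, at 16.79, 11.02 and 8.94 points.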

How the data were processed

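One list of called regions per sample was used for 26 of the 28 samples; the 2 inputs were not analysed here. The submitters' processing notes name Bowtie, HOMER and build mm9, with versions and thresholds not given in the sources. The deposited score is the authors' own, of unstated scaling, and was used for ranking and filtering inside each list only. Depth is unknown. The 2 factor libraries of an arm are biological replicates, per the labels. An index tag appears in the names of the histone and replicate 2 factor libraries and not in those of replicate 1, so the replicates may be batches, 1 of each in both arms.

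The members and gene lists were chosen with earlier results of these data known. Genes came from GENCODE M1 (1 entry per name). Sites were peaks of both replicates overlapping by at least 1 bp, merged; 1,25D3-only sites overlapped no vehicle peak of either replicate. Histone coverage was computed over 3 windows (100 kb and 5 kb around the body, 2 kb around the TSS), with 100 kb as the main one. Other pathway genes were named where they held a 1,25D3-only VDR site or were among the 3 highest of their list by absolute H3K27Ac change, and likeness was taken to genes outside the 7 and over 1 Mb away. Of 12 other feedback regulators 11 were found (not Spry3). With 2 libraries against 2, no exact two-sided p under 0.333 is possible, and no test was run. Overlap and motif code was tested on simulated data. Python 3.11.15, numpy 2.4.6, pandas 2.3.3, pysam 0.24.0 and samtools 1.23.1 were used. Alternatives changed overlap, score filter, replicates, window, merging and the size of change.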

Additional observations from a re-analysis of the deposited data

How the results depend on the processing

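The counts of VDR sites (3 genes and 3 sites with 1,25D3, all 3 found only with 1,25D3) were the same when overlap was set at 50% of the shorter peak or at centres within 500 bp. They fell to 0 genes and 0 sites with a 10 kb window. A narrower window can only lose sites, and the VDR sites lay 20.6 kb, 21.1 kb and 67.4 kb from the bodies of Dusp6, Dusp1 and Dusp5. With the higher-scoring 50% of each list, RXR sites numbered 10 with 1,25D3 and 3 at 2 genes with vehicle, and 2 at 2 genes were 1,25D3-only. With a 50 kb window there were 9 RXR sites at 3 genes with 1,25D3, 5 sites with vehicle, and 2 genes with a 1,25D3-only one. With 10 kb there were 3 at 2 genes with 1,25D3, 2 at 2 genes with vehicle and 1 at 1 gene 1,25D3-only. Leaving out each replicate in turn gave 16 to 32 RXR sites with 1,25D3, 9 to 17 with vehicle and 8 to 16 that were 1,25D3-only, the higher value without replicate 2 each time. It gave 3 to 4 VDR sites at 3 genes. With a replicate block, each 1,25D3 peak was set against the vehicle list of its own number. The counts stayed at 3 VDR sites at 3 genes and 6 RXR sites at 4 genes. This setting removes no more peaks than the main one, so the counts could only stay or rise. The 7 windows held 0 VDR peaks in both vehicle lists, so the VDR count could not change. The samples of a block share only a number. Gene and mark pairs over 10 points higher at day 35 numbered 3 in the 100 kb window, 25 with 5 kb each side, 11 at the TSS and 1 with a change over 20 points, and lower ones 0, 1, 3 and 0. The 100 kb window was the main one, and the choice to start further alternatives from the 5 kb window was made after seeing the data. From there, 25 were higher in the higher-scoring 50% of each list, 25 with regions closer than 1 kb merged and 19 over 20 points. Lower ones numbered 2, 1 and 0. For changes other than those made by the alternative's own construction the cause was not tested. Shares over all genes were computed only for sites at the main setting and for changes over 10 points in the 3 coverage windows. Counts at the other settings have no such share and cannot be set against all genes. The limits are 1 library per mark and day, unknown depth and region lists without signal below the authors' threshold.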

Other observations

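Some RXR peaks close to the start sites were called in replicate 1 lists alone, unlike the Dusp6 site 1.65 kb upstream. At Dusp1 a peak 0.344 kb downstream of the TSS scored 7.3 with 1,25D3, against 8.4 with vehicle, both in replicate 1. At Dusp5 a peak 2.56 kb into the gene scored 7.3 with 1,25D3, against 8.6 with vehicle, again both in replicate 1. At Dusp6 a peak 0.163 kb upstream scored 8.4 with 1,25D3, and at Spry1 one 0.075 kb upstream scored 5.2 with 1,25D3; neither was called with vehicle. All stood between the top 42.9% and the top 93.6% of their lists. The replicate 1 RXR lists were longer than the replicate 2 lists in both arms, and the part of list length in these calls was not tested.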
